A study of Rattus norvegicus with 18 samples.

Results

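The CCN proteins and the thrombospondins are secreted proteins of the extracellular matrix, and 8 of their genes are described here in cultured rat cells labelled as nucleus pulposus: Ccn1, Ccn2, Ccn3, Ccn4, Ccn5, Thbs1, Thbs2 and Thbs3. They were picked by gene name, 8 of the 33898 genes in the count table, and all 8 passed the filter on low counts, which 14184 genes passed. The family was proposed with earlier results of these data known, so the calls below, although adjusted over all 14184 genes, are a description of these libraries and support nothing further. The other 3 genes of both families in the table were far lower: Ccn6 had 0 to 12 counts a library and was not tested, Comp had 26 to 61, and Thbs4 had 322 to 551.

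RNA was sequenced from cultured disc cells, labelled as nucleus pulposus, of 8-week-old Sprague Dawley rats, with no genetic change named for any group. The cells were seeded in serum-containing medium for 24 h and then, in the treated groups, given PDS, Phen-DC3 or Braco-19 for 24 h, ligands that stabilise G-quadruplexes, the four-stranded structures formed by guanine-rich DNA and RNA. There were 6 groups of 3 libraries: PDS and PDS controls, Phen-DC3 and Phen-DC3 controls, and Braco-19 and a control group whose labels name no compound, which was paired with Braco-19 by elimination and is called the unnamed controls. The labels state neither doses nor what the controls received. Nothing in the labels says that the 3 libraries of a group came from separate animals or cultures. The p-values therefore measure only the spread between libraries within groups, pooled over the 6 groups, which may be technical.

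Both families are matricellular: they act mainly as signals within the matrix rather than as its building material. CCN proteins are built from modules shared with growth factor binding proteins and thrombospondins, bind integrins, heparan sulphate proteoglycans and LRP receptors, and include genes that respond to the YAP/TAZ, SRF and TGF-beta pathways. Thrombospondins are large calcium-binding oligomers, members of which bind CD36, CD47 or integrins, and thrombospondin 1 can activate latent TGF-beta. In the intervertebral disc, CCN2 is known as a promoter of matrix synthesis by nucleus pulposus cells and CCN3 as a partner that often runs opposite to it.

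The stretch before the start site is shown for 3 members, because the study's ligands bind quadruplexes and because Ccn1 and Ccn2 are textbook targets of YAP/TAZ, which reach DNA through TEAD factors. Each is the 250 bases upstream of the RefSeq gene start (build GRCr8), 5′ to 3′ on the gene's own strand, at chr2:237225690-237225939 (minus strand) for Ccn1, chr1:22624615-22624864 (minus strand) for Ccn2 and chr3:125510000-125510249 (plus strand) for Thbs1. Capitals mark GGAATG (or its reverse complement), the core letters of a TEAD site, TATAAA, the TATA box, and the quadruplex pattern, 4 runs of at least 3 G with gaps of 1 to 7 bases, which is written as runs of C where it lies on the opposite strand.
Ccn1: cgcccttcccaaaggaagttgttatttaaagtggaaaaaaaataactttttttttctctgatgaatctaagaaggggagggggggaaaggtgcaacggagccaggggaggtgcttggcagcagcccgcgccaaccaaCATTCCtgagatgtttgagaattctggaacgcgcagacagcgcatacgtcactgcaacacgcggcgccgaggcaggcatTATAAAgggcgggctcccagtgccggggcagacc
Ccn2: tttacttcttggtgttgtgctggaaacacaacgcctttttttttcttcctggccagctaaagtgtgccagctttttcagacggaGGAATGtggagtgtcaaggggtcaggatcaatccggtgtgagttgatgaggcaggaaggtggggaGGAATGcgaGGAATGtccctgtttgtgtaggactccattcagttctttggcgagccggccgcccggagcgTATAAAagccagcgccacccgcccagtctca
Thbs1: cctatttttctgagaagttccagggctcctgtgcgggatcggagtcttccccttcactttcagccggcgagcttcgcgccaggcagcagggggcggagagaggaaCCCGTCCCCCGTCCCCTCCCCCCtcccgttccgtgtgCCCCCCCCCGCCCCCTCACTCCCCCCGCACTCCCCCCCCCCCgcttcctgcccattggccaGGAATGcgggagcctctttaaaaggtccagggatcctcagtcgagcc

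The Ccn2 stretch held GGAATG 3 times, starting at bases -166, -101 and -92 before the start site, and TATAAA at -31. Ccn1 held it once, on the opposite strand from -113 to -108, with TATAAA at -34. Thbs1 held GGAATG once, at -47, no TATAAA, and 2 quadruplex patterns, both on the opposite strand, of 23 bases from -145 and of 42 bases from -108, and its G and C content was 67.6% against 53.2% for Ccn2 and 54.0% for Ccn1. Thbs3, not printed, held 1 quadruplex pattern, of 17 bases on the opposite strand, and no GGAATG. That match is a long unbroken run and 1 short run, so it meets the pattern only because bases inside the long run count as gaps. Neither the AP-1 site TGANTCA nor the CArG box, the SRF site, was found on either strand in any of the 4. Among 27457 rat promoters of the same length, 11.8% held GGAATG, 13.1% TATAAA, 6.36% TGANTCA, 1.5% a CArG box and 15.3% the quadruplex pattern. No matches of different motifs overlapped in these stretches. Ccn3, Ccn4, Ccn5 and Thbs2 had no entry among these promoters.

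**Figure D1:**
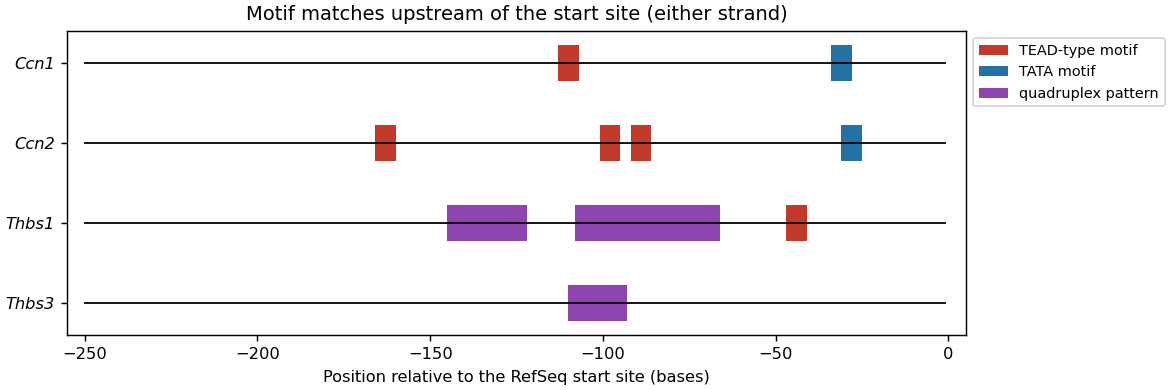
Motif matches in the 250 bases before the start sites of Ccn1, Ccn2, Thbs1 and Thbs3, with position relative to the start on the x axis and one row per gene. Ccn2 carries 3 GGAATG matches, and the quadruplex pattern is in Thbs1 and Thbs3 only among these 4.

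By the deposited annotation, whose build no source used here names, Ccn1 (ENSRNOG00000014350) lies on chromosome 2 from 251529354 to 251532312 and Ccn2 (ENSRNOG00000015036) on chromosome 1 from 21851660 to 21854773, both on the minus strand. Ccn3 (ENSRNOG00000008697) and Ccn4 (ENSRNOG00000007078) are both on the plus strand of chromosome 7, from 94375020 to 94383024 and from 107695215 to 107723772. Ccn5 (ENSRNOG00000010666) and Thbs1 (ENSRNOG00000045829) are both on the plus strand of chromosome 3, from 160207913 to 160219331 and from 109862117 to 109873466. Thbs2 (ENSRNOG00000010529) is on the minus strand of chromosome 1 from 56653938 to 56683731, and Thbs3 (ENSRNOG00000059903) on the plus strand of chromosome 2 from 188528979 to 188540736. Counts are for whole genes, so exons and isoforms are not told apart.

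The libraries held 15715121 to 18369443 counts in genes. The unnamed controls and Braco-19 libraries stood apart from the other 12: genes over 5000 bp took 23.3 to 25.4% of their counts, against 7.42 to 10.7% elsewhere. Within the Phen-DC3 pair this share was 9.99 ± 0.74% in the controls and 7.99 ± 0.52% under the compound (SD, n = 3 each). Of the markers of the labelled cell type, Tbxt, Shh and Krt19 were at 0 in all 18 libraries. Krt18 reached at most 0.11 CPM, counts per 1000000 scaled by library size, and Ca12 was low (0.19 to 4.21). Krt8 (6.24 to 16.9), Cd24 (11.4 to 43.0), Foxf1 (33.7 to 48.0) and Pax1 (73.7 to 116) were present. The measured fibroblast and annulus genes were present too, from Mkx (10.6 to 15.9) and Scx (46.6 to 120) to Col1a1 (1037 to 5964), except Tnmd, which was at 0. The defining leukocyte gene Ptprc and the endothelial gene Cdh5 were at 0 in all 18 libraries, but not every gene of their lists was. Among the macrophage and leukocyte genes Cd14 stood at 31.1 to 120 CPM and Cd68 at 0.79 to 4.63 CPM. Among the endothelial genes Tek reached 1.19 CPM and Vwf 0.81 CPM. The other measured genes of both lists reached at most 0.995 CPM (Csf1r). The 5 platelet genes, of interest because platelets store thrombospondin 1, summed to at most 1.34 CPM.

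Thbs2 and Thbs1 were among the most abundant transcripts of these cells, ranking 8 and 24 by summed counts over all genes; Ccn2 ranked 102, Ccn3 207, Ccn1 716, Ccn5 1000, Ccn4 4462 and Thbs3 5534. The 8 genes together took 0.856 ± 0.051% of all counts in PDS controls and 1.42 ± 0.07% in unnamed controls (SD, n = 3 each). To compare genes, CPM was divided by gene length in kb. In PDS controls the order by CPM per kb was Thbs2 (863 ± 44), Thbs1 (393 ± 40), Ccn3 (324 ± 7.2), Ccn2 (274 ± 7.8), Ccn5 (139 ± 7.4), Ccn1 (107 ± 0.91), Ccn4 (16.6 ± 1.6) and Thbs3 (10.7 ± 0.58), and no neighbours overlapped in their 3 libraries. Phen-DC3 controls had the same order. In unnamed controls Thbs1 came first at 1781 ± 195 CPM per kb, then Thbs2 at 969 ± 29 and Ccn2 at 502 ± 62. Ccn1 (146 ± 23) and Ccn3 (135 ± 8.5) overlapped there, as did Ccn5 (34.0 ± 1.7) and Ccn4 (33.7 ± 1.0), and Thbs3 was lowest again at 9.65 ± 0.19.

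**Figure D2:**
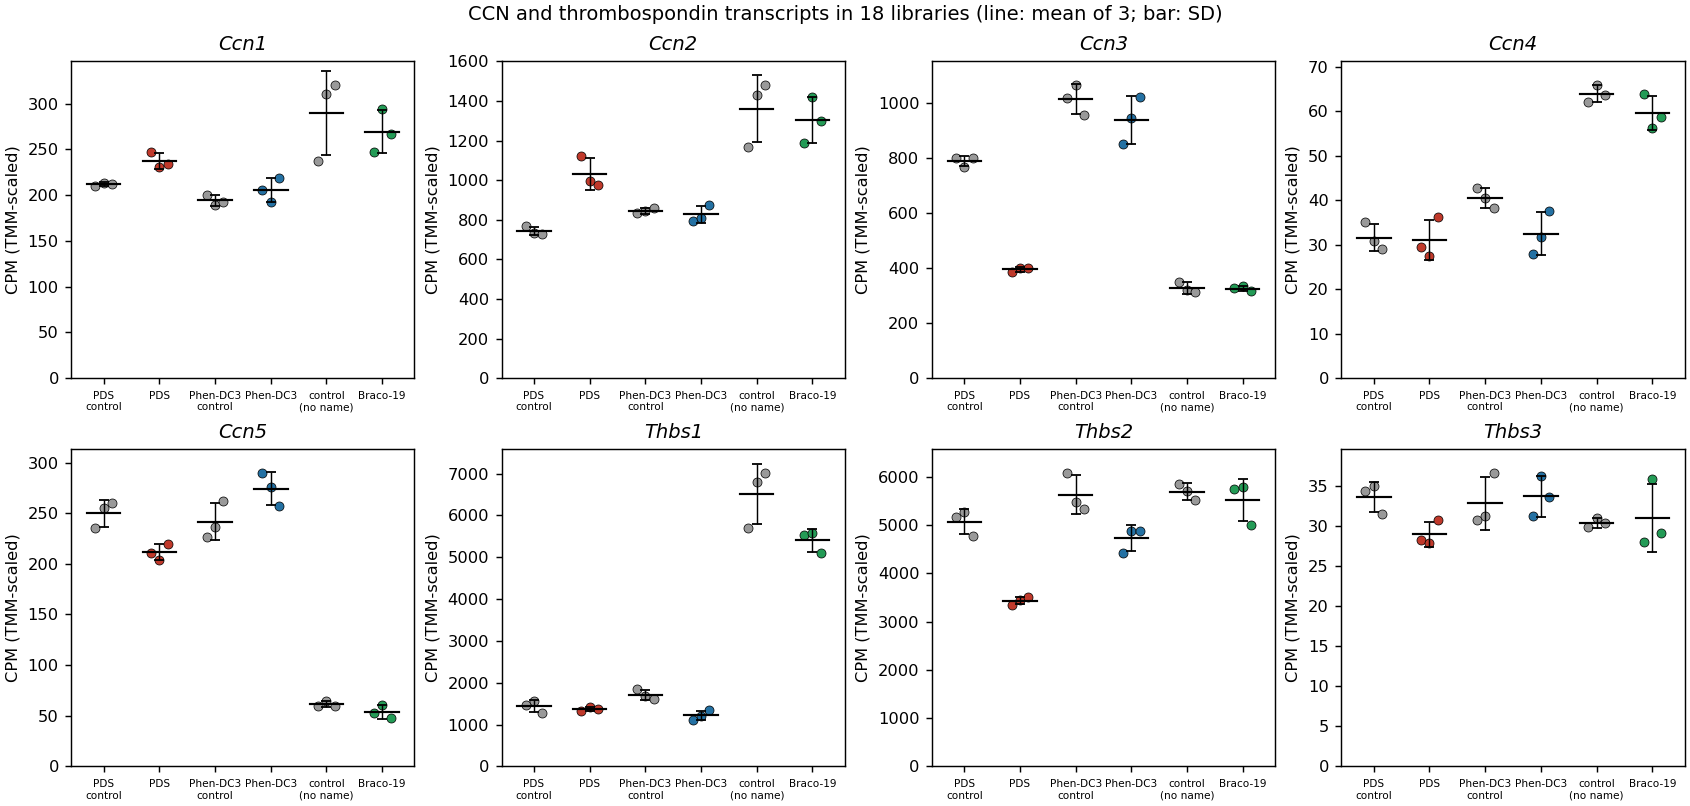
TMM-scaled CPM (y axis, from 0) of each of the 8 genes in the 18 libraries, by group on the x axis; points are libraries, the line is the mean of 3 and the bar the SD. Ccn3 under PDS (385 to 400 CPM) lies below every PDS control library (768 to 798 CPM), and Thbs1 is highest in the unnamed controls and Braco-19 libraries.

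Under PDS the CCN genes moved apart: Ccn2 rose, Ccn3 fell to 0.501 of its control level, and Thbs2, the most abundant of the 8, fell as well. The other 5 genes did not pass the test. So 3 of 8 members passed at an adjusted p under 0.05 (1 higher, 2 lower), where 8.09% of all genes tested did (5.13% higher, 2.96% lower). Fewer cells of one kind and less RNA per cell cannot be told apart in bulk RNA.

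Among the CCN genes, Ccn2, known as connective tissue growth factor, measured 766, 733 and 726 CPM in the 3 PDS controls and 1124, 997 and 976 CPM under PDS. All 3 treated libraries lay above all 3 controls. The log2 change was 0.48 ± 0.08 (SE), a 1.39-fold rise with an adjusted p of 0.00097. Ccn3, also called NOV and known in several tissues to oppose CCN2, measured 798, 768 and 798 CPM in the controls and 385, 400 and 398 CPM under PDS. The groups were far apart and the spread within each was small. Its log2 change of -0.998 ± 0.069 had an adjusted p of 2.6e-08.

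Ccn5, which lacks the C-terminal module of the other CCN proteins, measured 235, 255 and 260 CPM in controls and 210.5, 204 and 220 CPM under PDS. Its treated libraries lay below all controls, but the log2 change of -0.24 ± 0.08 did not pass (adjusted p = 0.072). It did pass with upper-quartile scaling (adjusted p = 0.042), with only these 6 libraries in the fit (0.0087) and in DESeq2 (0.031). Ccn1, or CYR61, an immediate early gene of growth factor and stretch responses, measured 210, 214 and 212 CPM in controls and 248, 231 and 234 CPM under PDS. The groups did not overlap, and the log2 change of 0.16 ± 0.09 did not pass (adjusted p = 0.28). Ccn4, known as WISP1 and as a Wnt-responsive gene, overlapped between groups at 29.0 to 35.0 and 27.5 to 36.1 CPM.

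Among the thrombospondins, Thbs2, whose product is known to inhibit angiogenesis and to shape collagen fibrils, measured 5172, 5265 and 4775 CPM in controls and 3350, 3459 and 3503 CPM under PDS. No treated library reached the lowest control. The log2 change was -0.56 ± 0.07 (adjusted p = 2.8e-05), a 1.48-fold fall. Its paralogue Thbs1 measured 1472, 1566 and 1276 CPM in controls and 1323, 1419 and 1366 CPM under PDS, fully overlapping, with a log2 change of -0.07 ± 0.09 and an interval of 2 SE from -0.25 to 0.11. Thbs3, a pentameric thrombospondin of cartilage and bone, measured 31.6 to 35.1 CPM in controls and 27.9 to 30.8 CPM under PDS without overlap, and its log2 change of -0.22 ± 0.10 did not pass (adjusted p = 0.195).

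In 6 of 8 members the PDS and control libraries did not overlap, and the same was true of 33.3% of all genes tested. The median log2 change over the 8 genes was -0.14, and over all genes 0.02. The 3 calls held with each of the 6 libraries left out in turn. With all 9 controls pooled, Ccn2 (log2 0.07) and Ccn3 (-0.85) no longer passed. Some marker sums moved with PDS: the 6 chondrocyte-type matrix genes summed to 69.7 to 79.5 CPM under PDS and 88.3 to 93.0 CPM in its controls, with Acan and Chad near 0 (at most 3.44 and 0.97 CPM in any library), and the 9 measured nucleus pulposus genes to 154 to 160 CPM against 164 to 169 CPM. Hapln1, at 51.0 to 87.4 CPM over the 18 libraries, was the largest part of the first sum, and Matn3 reached at most 0.38 CPM. The second sum was mostly Pax1, Foxf1 and Cd24. The part of these sums in the results was not tested.

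**Figure D3:**
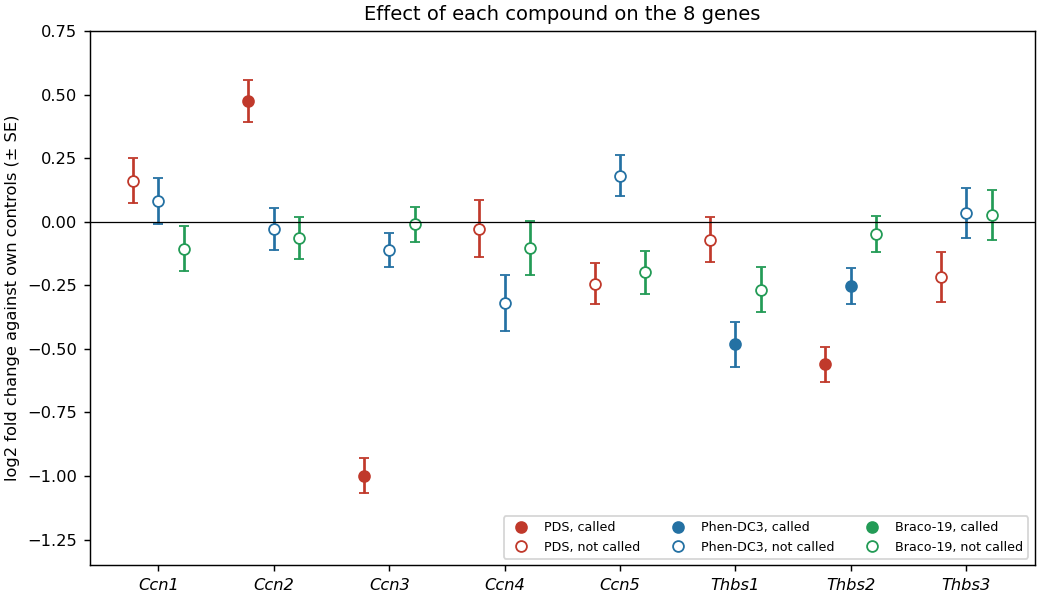
Log2 fold change (y axis) of the 8 genes (x axis) under each compound against its own controls; points are fitted values, filled where called, and bars are 1 SE either side. Ccn2 under PDS (0.48) is the only gene called higher, and Ccn3 (-0.998) and Thbs2 (-0.56) under PDS and Thbs1 (-0.48) and Thbs2 (-0.25) under Phen-DC3 are called lower.

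The genes around the 2 families moved in both directions under PDS. From lists chosen with earlier results of these data known, 90 genes were tested, of which 13 rose and 11 fell, where 5.13% of all genes tested were higher and 2.96% lower. The counts were 8 and 11 without PDS control replicate 3, 11 and 16 with the length correction, and 0 and 3 with all 9 controls pooled. Over all genes the calls in these settings were 480 higher and 271 lower, 682 and 540, and 67 and 35. Without these changes they were 728 and 420. Of 14 receptors and binding partners 3 rose and none fell: Itga5 (log2 0.53 ± 0.07, 220 to 319 CPM) and Itgb1 (0.40 ± 0.07, 1459 to 1924 CPM), the chains of the fibronectin receptor, and Itgb3 (1.67 ± 0.38), which stayed at a low level of 0.50 CPM in controls and 1.61 CPM under PDS and lost its call without PDS replicate 2 (1.46, adjusted p = 0.054). Their median log2 change was 0.19.

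Under PDS 5.13% of all genes tested were higher and 2.96% lower. Of the 19 tested YAP/TAZ target genes other than the members, 1 rose, 4 fell and 14 were not called, with a median of -0.14. The number fallen was 6 with upper-quartile scaling and in DESeq2, 7 with the length correction or with only the 6 libraries compared, and 1 with all 9 controls pooled. Over all genes the number lower was 527, 591, 540, 1066 and 35 in these settings, in that order, and 420 without these changes. The 4 were F3, tissue factor (-0.71 ± 0.10), Ankrd1, a muscle ankyrin repeat protein (-0.74 ± 0.14), Nuak2, a kinase (-0.49 ± 0.09), and Ccdc80, a matrix protein (-0.47 ± 0.07). The 1 that rose was Nt5e (0.55 ± 0.13), the ectonucleotidase CD73, named after its value was seen; the count of risen targets was 0 without PDS control replicate 2 or 3 or PDS replicate 3 and 2 without PDS replicate 1. Of 17 Hippo pathway components none rose and 3 fell, the TEAD cofactor Vgll3 (-0.48 ± 0.08) and the transcription factors Tead2 (-0.40 ± 0.10) and Tead4 (-0.64 ± 0.18). Tead2 lost its call without PDS control replicate 2 or any 1 PDS library (-0.42 to -0.33), and Tead4 without PDS control replicate 2 or 3 or PDS replicate 1 or 2 (-0.67 to -0.49). The count of fallen components was 1 without PDS control replicate 2, PDS replicate 1 or PDS replicate 2. Of 15 SRF target genes Tagln, an actin-binding protein, rose (0.49 ± 0.11) and Fhl2, a LIM-domain cofactor, fell (-0.34 ± 0.08); Tagln lost its call without PDS control replicate 1 (0.45, adjusted p = 0.053).

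Of 16 genes of the TGF-beta axis 4 rose and 1 fell, where 5.13% of all genes tested were higher and 2.96% lower. Pmepa1, a feedback inhibitor and target of the pathway, rose from 91.7 to 197 CPM (log2 1.105 ± 0.084), the ligand Tgfb1 by 0.27 ± 0.07 and the repressor Skil, named after its value was seen, by 0.44 ± 0.13. The ligand Tgfb3 fell by 0.54 on the log2 scale. Tgfb1 lost its call without PDS control replicate 3 (0.23, adjusted p = 0.10), PDS replicate 1 (0.25, 0.077) or PDS replicate 2 (0.26, 0.078), and the count of risen genes was 2 without PDS control replicate 3 or PDS replicate 1. Among 9 other matricellular genes 4 rose, Smoc2 (0.79 ± 0.09), Spp1, osteopontin (0.60 ± 0.13), and, named after their values were seen, Postn, periostin (0.43 ± 0.12), and Tnc, tenascin C (0.32 ± 0.10). Tnn, tenascin N (-0.48 ± 0.08), and Fbln5, fibulin 5 (-0.31 ± 0.08), fell. Here the count of risen genes was 2 without PDS control replicate 3, PDS replicate 1 or PDS replicate 3, and that of fallen genes 1 without PDS replicate 3, where Fbln5 lost its call (-0.29, adjusted p = 0.078).

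**Figure D4:**
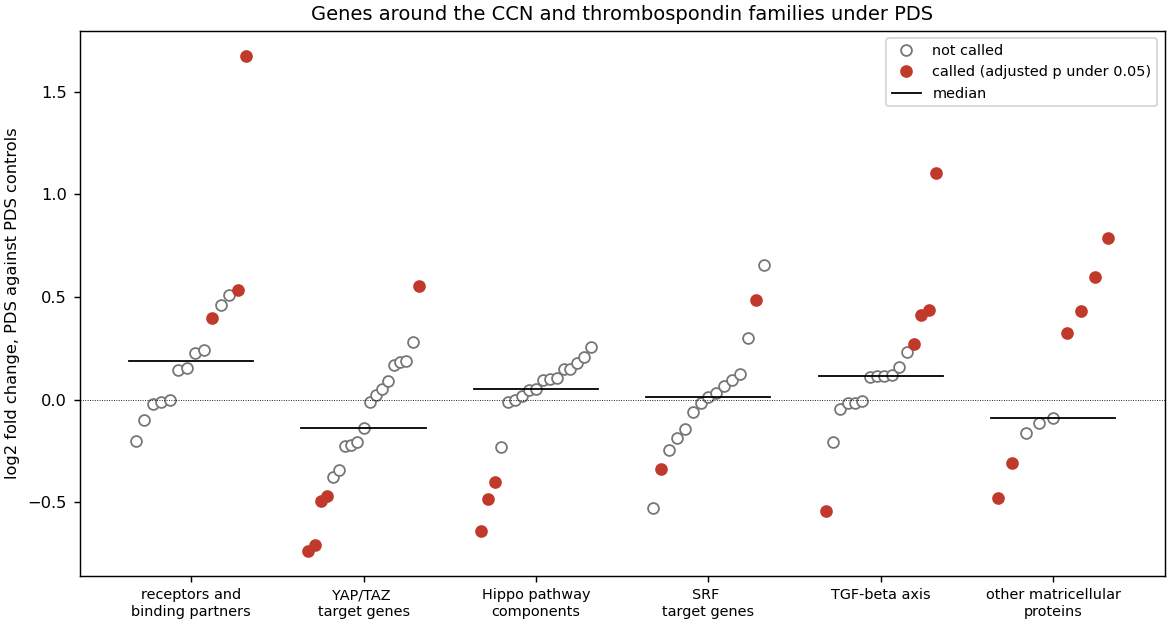
Log2 fold change under PDS (y axis) of every tested gene of the 6 surrounding lists (x axis), 1 point a gene, filled where called, with a line at each list's median. Itgb3 (1.67) and Pmepa1 (1.105) are the highest called genes, and Ankrd1 (-0.74) and F3 (-0.71) the lowest.

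Phen-DC3 left the CCN genes uncalled and both abundant thrombospondins lower: 2 of 8 members passed, both lower, where 8.01% of all genes tested passed and 5.82% were lower. Thbs1 measured 1841, 1670 and 1606 CPM in the Phen-DC3 controls and 1116, 1209 and 1338 CPM under the compound. All treated libraries were below all controls. The log2 change was -0.48 ± 0.09 (adjusted p = 0.011), a 1.40-fold fall. Thbs2 measured 6089, 5481 and 5333 CPM in controls and 4432, 4885 and 4885 CPM under Phen-DC3, again without overlap, with a log2 change of -0.25 ± 0.07 (adjusted p = 0.036).

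Neither call was stable. Thbs1 no longer passed without Phen-DC3 control replicate 1 (-0.42, adjusted p = 0.072), Phen-DC3 replicate 1 (-0.42, 0.11) or Phen-DC3 replicate 2 (-0.48, 0.0505), and Thbs2 no longer passed without Phen-DC3 control replicate 1 (-0.19) or 2 (-0.26) or Phen-DC3 replicate 1 (-0.21) or 2 (-0.27). The share of counts in long genes, given above, moved with both. In a fit that corrected for gene length, Thbs1 was at -0.36 (adjusted p = 0.0505) and Thbs2, the longest of the 8 at 5879 bp, at 0.02 (adjusted p = 0.87). The fibroblast and annulus genes, 8 measured, summed to 1902 to 2221 CPM under Phen-DC3 and 2430 to 2485 CPM in its controls. Col1a1, at 1037 CPM or more in all 18 libraries, was the largest of these, and the next, Col3a1, reached at most 398 CPM. The 7 smooth muscle and pericyte genes summed to 72.4 to 77.7 CPM against 58.0 to 69.9 CPM, with Rgs5 near 0. The 9 macrophage and leukocyte genes, mostly Cd14, summed to 108 to 118 CPM against 95.6 to 107 CPM. Their part in these results was not tested.

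Of the CCN genes, Ccn4 measured 42.8, 40.4 and 38.3 CPM in controls and 28.0, 31.6 and 37.6 CPM under Phen-DC3. These libraries did not overlap, but the log2 change of -0.32 ± 0.11 did not pass (adjusted p = 0.070). It passed in DESeq2 (0.039) and without Phen-DC3 control replicate 3 (0.036) or Phen-DC3 replicate 3 (0.013). Ccn5 measured 227, 236 and 262 CPM in controls and 290, 276 and 257 CPM under Phen-DC3, overlapping, with a log2 change of 0.18 ± 0.08 (adjusted p = 0.145) that passed without Phen-DC3 control replicate 3 (0.24, 0.046). Ccn3 overlapped at 955 to 1065 and 848 to 1020 CPM. Ccn2 overlapped at 833 to 859 and 796 to 876 CPM, with a log2 change of -0.03 ± 0.08 and an interval of 2 SE from -0.20 to 0.14, which leaves out a rise of the size seen under PDS. Ccn1 and Thbs3 overlapped too, at log2 0.08 ± 0.09 and 0.04 ± 0.10.

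Libraries did not overlap in 3 of 8 members, Ccn4, Thbs1 and Thbs2, and in 22.1% of all genes tested. The median log2 change was -0.07 over the members and -0.01 over all genes. In the surrounding lists 0 of 90 genes rose and 18 fell, where 2.19% of all genes tested were higher and 5.82% lower. They included the thrombospondin and CCN receptors Lrp1 (-0.52 ± 0.11), Itgav (-0.43 ± 0.08), Lrp6 (-0.30 ± 0.07) and Cacna2d1 (-0.79 ± 0.20), the YAP/TAZ targets Myof (-0.40 ± 0.08), Crim1 (-0.39 ± 0.09), Dock5 (-0.51 ± 0.11) and Asap1 (-0.38 ± 0.10), and the latent TGF-beta binding proteins Ltbp1 (-0.39 ± 0.07) and Ltbp2 (-0.29 ± 0.08). The Hippo kinase Lats1 (-0.63 ± 0.13), its partner Mob1b (-0.56 ± 0.15), the scaffold Amot (-0.49 ± 0.14), the adhesion protein Vcl (-0.49 ± 0.10), the repressor Skil (-0.67 ± 0.13), the co-receptor Tgfbr3 (-0.45 ± 0.11) and tenascin C, Tnc (-0.39 ± 0.10), fell as well. With the length correction the number called lower was 2, and Lrp1 came to 0.09 and Ltbp2 to 0.03. No list gene passed without Phen-DC3 control replicate 1 or Phen-DC3 replicate 1, 1 passed without Phen-DC3 replicate 2 and 6 without Phen-DC3 control replicate 2. The counts went up to 4 higher and 27 lower without Phen-DC3 control replicate 3, and to 1 higher and 25 lower without Phen-DC3 replicate 3. Calls over all genes moved too, from 1136. They were 3 and 129 without control replicate 1 or 2, and 0 and 22 without Phen-DC3 replicate 1 or 2. Without control replicate 3 they were 1451 higher and 1864 lower, and without Phen-DC3 replicate 3 1049 and 1604. With the length correction they were 22 and 25.

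Braco-19 changed none of the 8 genes beyond the threshold against the unnamed controls (0 of 8, with 0.275% of all genes called by edgeR), and DESeq2 also called 0. At an unadjusted p under 0.05 there were 2, Thbs1 (adjusted p = 0.15) and Ccn5 (adjusted p = 0.22). Thbs1 measured 5696, 6807 and 7021 CPM in unnamed controls and 5535, 5589 and 5095 CPM under Braco-19. All treated libraries were below all controls, but control replicate 1 lay much nearer to them than to its own group, and the log2 change was -0.27 ± 0.09. Ccn5 measured 59.4, 65.0 and 60.0 CPM and 52.4, 60.8 and 47.4 CPM, overlapping, with a log2 change of -0.20 ± 0.08.

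Ccn2 overlapped at 1167 to 1482 CPM in unnamed controls and 1186 to 1419 CPM under Braco-19, with a log2 change of -0.06 ± 0.08 and an interval of 2 SE from -0.23 to 0.10. Ccn3 overlapped at 312 to 351 and 316 to 333 CPM, with an interval from -0.15 to 0.13. For both genes these intervals leave out the changes measured under PDS, but the starting levels differed. Ccn3 averaged 328 CPM in unnamed controls, against 788 CPM in PDS controls and 395 CPM under PDS. Ccn2 averaged 1360 CPM in unnamed controls, against 742 CPM in PDS controls and 1032 CPM under PDS. The part of the starting level was not tested. Ccn1, Ccn4, Thbs2 and Thbs3 overlapped as well, with log2 changes of -0.11, -0.10, -0.05 and 0.03. Thbs1 was the only member whose libraries did not overlap, against 28.1% of all genes tested. Of the 90 genes in the surrounding lists edgeR called 0 in the fit over 18 libraries, where 0.275% of all genes were called. It called 3 higher and 5 lower with only these 6 libraries in the fit, and DESeq2 1 higher and 2 lower. Calls over all genes also rose in these other settings, to the counts given below with the dependence on processing.

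Of the lower family members, Thbs4, a thrombospondin of tendon and muscle, had log2 changes of 0.14 ± 0.11, -0.16 ± 0.11 and -0.06 ± 0.11 under PDS, Phen-DC3 and Braco-19, and Comp, cartilage oligomeric matrix protein, 0.07 ± 0.24, 0.30 ± 0.24 and -0.15 ± 0.25. None of these passed. Thbs4 stood at 19.9 to 29.7 CPM and Comp at 1.62 to 3.57 CPM over the 18 libraries.

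The differences between compounds were tested directly for 3 pairs, each compound taken against its own controls, with p adjusted over all genes within a pair. The doses are not known, so the compounds cannot be matched by dose, and both tests that involve PDS share its libraries and controls. PDS and Phen-DC3 differed in 5 of 8 members, where 20.2% of all genes passed (12.4% higher, 7.76% lower). The PDS effect was higher for Ccn2 by 0.50 ± 0.12 (adjusted p = 0.0078) and for Thbs1 by 0.41 ± 0.13 (0.027), and lower for the other 3, with differences of -0.89 ± 0.10 for Ccn3 (3.3e-05), -0.42 ± 0.11 for Ccn5 (0.015) and -0.31 ± 0.10 for Thbs2 (0.034). Ccn2 and Ccn3 passed under all 22 alternatives. Thbs1 lost its call in 10 of the 22, at 0.24 (adjusted p = 0.16) with the length correction and at 0.33 to 0.41 without PDS control replicate 3, PDS replicate 2 or 3, Phen-DC3 control replicate 1 or 2 or Phen-DC3 replicate 1 or 2. Thbs2 lost it in 10 as well, 9 of them with 1 library left out (-0.32 to -0.27), which was any of the 12 but PDS control replicate 3, Phen-DC3 control replicate 1 and Phen-DC3 replicate 1, and Ccn5 in 2, 1 of them without Phen-DC3 replicate 1 (-0.38, 0.051).

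PDS and Braco-19 differed in 3 members, where 14.0% of all genes passed (7.28% higher, 6.75% lower): Ccn2 by 0.54 ± 0.12 (adjusted p = 0.0067), Ccn3 by -0.99 ± 0.10 (4.8e-06) and Thbs2 by -0.51 ± 0.10 (0.0031). All 3 passed under all 22 alternatives. Ccn2 and Ccn3 started from different levels in the PDS controls and the unnamed controls, and the part of this was not tested. Ccn1 (0.27 ± 0.13, adjusted p = 0.15) passed without unnamed control replicate 1 (0.39, 0.022). Braco-19 and Phen-DC3 differed in 0 members by edgeR, where 0.0494% of all genes passed (0.0353% higher, 0.0141% lower), and in 0 by DESeq2. At an unadjusted p under 0.05 there was 1, Ccn5 (-0.38 ± 0.12, adjusted p = 0.33). The intervals of 2 SE ran from -0.27 to 0.20 for Ccn2 and from -0.04 to 0.47 for Thbs1, so differences up to those bounds are not excluded.

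The control groups also differed from each other. Between unnamed and PDS controls 7 of 8 members passed, 5 higher and 2 lower, but so did 73.3% of all genes tested (37.7% higher, 35.6% lower). Thbs1 was 4.53-fold higher in the unnamed controls (5696, 6807 and 7021 CPM against 1472, 1566 and 1276 CPM, log2 2.18 ± 0.09, adjusted p = 7.1e-14). Ccn4 was 2.02-fold higher (62.1, 66.0 and 63.7 CPM against 35.0, 30.8 and 29.0 CPM, log2 1.02 ± 0.11), Ccn2 1.83-fold (1167, 1432 and 1482 CPM against 766, 733 and 726 CPM, log2 0.87 ± 0.08) and Ccn1 1.37-fold (237, 311 and 321 CPM against 210, 214 and 212 CPM, log2 0.45 ± 0.09). Under 16 alternatives, the length correction among them, these 4 calls held but the sizes moved. Log2 ranges were 1.70 to 2.26 for Thbs1, 0.90 to 1.29 for Ccn4, 0.76 to 0.97 for Ccn2 and 0.34 to 0.68 for Ccn1. In all 4 genes the libraries of the 2 groups did not overlap, and unnamed control replicate 1 was the lowest of its group.

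Ccn5 and Ccn3 went the other way. Ccn5 was 4.07-fold lower in unnamed controls (59.4, 65.0 and 60.0 CPM against 235, 255 and 260 CPM, log2 -2.02 ± 0.09), and Ccn3 was 2.41-fold lower (351, 321 and 312 CPM against 798, 768 and 798 CPM, log2 -1.27 ± 0.07). Under the 16 alternatives Ccn5 ran from -2.14 to -1.70 and Ccn3 from -1.38 to -1.23. Thbs2 was called higher at 0.17 ± 0.07 (adjusted p = 0.037) but was at -0.98 with the length correction, and its call was lost without PDS control replicate 1 (0.18) or 3 (0.12) or unnamed control replicate 1 (0.15) or 2 (0.16). RLE or upper-quartile scaling, no low-count filter, a replicate block, only the libraries compared and DESeq2 lost it too. The call held in 4 of 16 alternatives. Thbs3 did not pass (-0.15 ± 0.10), but did with upper-quartile scaling (-0.26, adjusted p = 0.022) and with the length correction (-0.44, 0.00055). The libraries did not overlap in 8 of 8 members and in 76.9% of all genes.

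Phen-DC3 controls against unnamed controls gave 6 calls of 8, 2 higher and 4 lower, where 69.5% of all genes passed (34.6% higher, 34.9% lower): Ccn5 (1.98 ± 0.09) and Ccn3 (1.63 ± 0.07) were higher and Thbs1 (-1.93 ± 0.09), Ccn2 (-0.69 ± 0.08), Ccn4 (-0.66 ± 0.11) and Ccn1 (-0.58 ± 0.09) lower. The libraries did not overlap in those 6, as in 71.2% of all genes. This comparison shares the unnamed controls with the one before. Thbs2 was at -0.02 ± 0.07 and, with the length correction, at 0.94 (adjusted p = 5.5e-11). Thbs3 was at 0.11 ± 0.10 and passed with upper-quartile scaling (0.22, adjusted p = 0.047) and with the length correction (0.34, 0.0052). Between Phen-DC3 and PDS controls only Ccn3 passed, 1 of 8 where 6.09% of all genes did (4.50% higher), at 1016, 1065 and 955 CPM against 798, 768 and 798 CPM without overlap (0.36 ± 0.07, adjusted p = 0.015). That call was lost without PDS control replicate 2 (0.34, adjusted p = 0.085) or Phen-DC3 control replicate 2 (0.31, 0.10). The libraries did not overlap in 6 of 8 members, where 23.8% of all genes did not. Ccn4 (0.36 ± 0.11, adjusted p = 0.056) passed without PDS control replicate 1 (0.44, 0.041) or Phen-DC3 control replicate 3 (0.40, 0.027), and Thbs1 (0.25 ± 0.09, adjusted p = 0.094) without Phen-DC3 control replicate 3 (0.29, 0.042).

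Other features of the libraries moved with these control differences. The 8 measured fibroblast and annulus genes summed to 5300 to 6981 CPM in the unnamed control and Braco-19 libraries. In the other 12 the sum was 1902 to 2485 CPM. Col1a1 alone ran from 1037 to 5964 CPM over the 18 libraries. The next highest, Col3a1, reached at most 398 CPM, and Tnmd was at 0 throughout. The 9 macrophage and leukocyte genes summed to 34.8 to 48.2 CPM against 95.6 to 122 CPM, almost all of it Cd14, with Ptprc at 0 throughout. Their part in the results was not tested, and a batch, a culture and the control group cannot be told apart here.

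**Figure D5:**
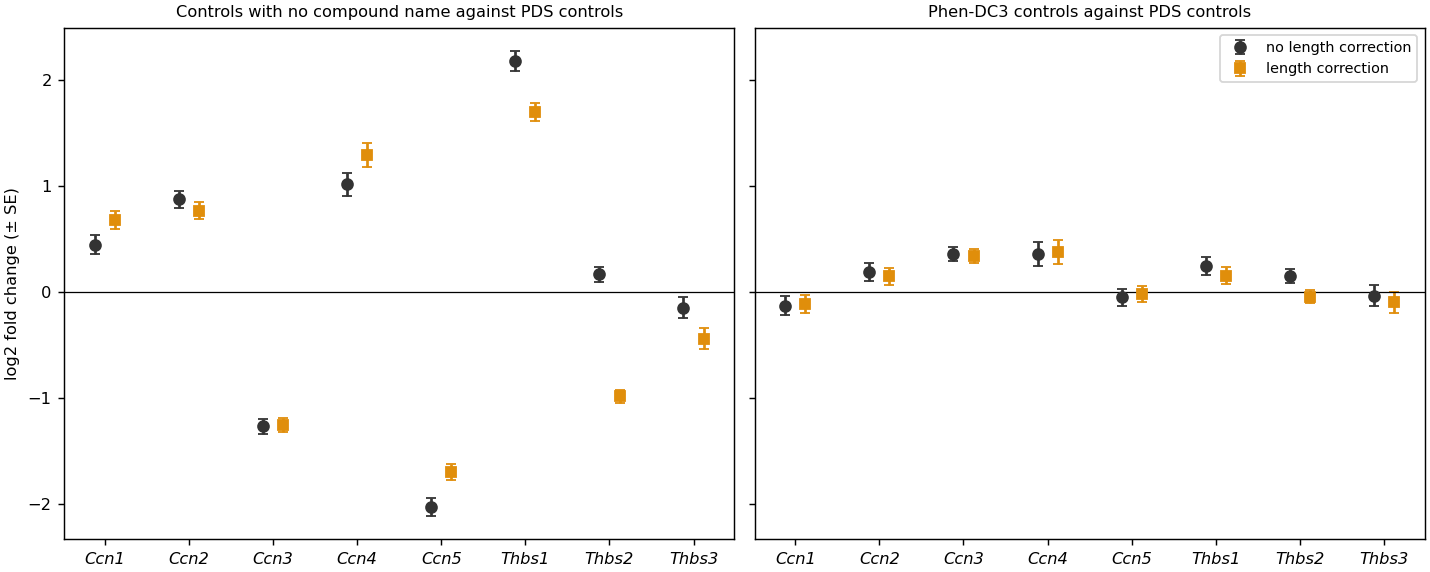
Log2 fold change (y axis) of the 8 genes (x axis) between control groups, with the unnamed controls against PDS controls on the left and Phen-DC3 controls against PDS controls on the right; circles are without and squares with the gene length correction, and bars are 1 SE either side. Thbs1 (2.18) and Ccn5 (-2.02) lie farthest apart on the left without the correction, and Thbs2 moves from 0.17 to -0.98 with it.

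The genes with the most similar pattern over the 18 libraries were found by Pearson's r of log2 CPM among named genes averaging 3 or more on that scale, as a description with no test, since all points share the split between the 6 and the 12 libraries. Ccn1 and Ccn2 had Hbegf, a heparin-binding EGF family ligand, in common among their 3 most similar genes (r = 0.95 and 0.96). For Ccn1 it also held within the 12 PDS and Phen-DC3 set libraries (0.83) and within the 6 others (0.90), and for Ccn2 it was 0.81 and 0.86. Lyar (0.96) and Efnb2, an ephrin (0.96), were the others for Ccn2, and Rrp1b (0.93) and Foxk2 (0.92) those for Ccn1. Ccn3 went with C1qtnf7 (0.98), the scavenger receptor Scara5 (0.98) and Rcan2 (0.97), at 0.97 to 0.98 within the 12 libraries but 0.29, -0.16 and -0.26 within the 6, where Ccn3 itself ranged only from 312 to 351 CPM.

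Thbs1 went with Lrp6, a Wnt co-receptor, Ltbp1 and Acaca (0.996, 0.995 and 0.995), and within the 12 libraries with r of 0.93, 0.95 and 0.90, against 0.73, 0.64 and 0.78 within the 6. Thbs2 went with the R-spondin receptor Lgr5 (0.96), the collagen-binding integrin chain Itga11 (0.94) and Ptgfr, a prostaglandin receptor (0.93), and these values were 0.97, 0.97 and 0.94 within the 12 and 0.80, 0.78 and 0.79 within the 6. Ccn4 went with Alcam (0.99), Trim2 (0.98) and Top2b (0.98), and Ccn5 with Dhrs7, Sqor and Gm2a (0.996, 0.993 and 0.993), for which the values were 0.93, 0.90 and 0.91 (Ccn4) and 0.85, 0.86 and 0.60 (Ccn5) within the 12 and 0.67, 0.91 and 0.74 (Ccn4) and 0.85, 0.45 and 0.88 (Ccn5) within the 6. Thbs3, whose level was nearly flat over the groups, had no gene above r = 0.77 (Pik3ip1).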

How the data were processed

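Gene-level counts for 18 RNA-seq libraries were used. The authors deposited raw counts per gene, made with CASAVA, HISAT2 and featureCounts 1.5.0-p3 per the submitters' processing notes; the sources used here do not give genome build, annotation or strand setting, so antisense reads cannot be told apart. CPM is a gene's count per 1000000 counts of its library, scaled by the TMM factor, and CPM per kb divides it by the deposited gene length.

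The counts were tested with edgeR 4.0.16 in R 4.3.3: TMM scaling, filterByExpr, 1 mean per group over all 18 libraries (12 residual degrees of freedom), robust quasi-likelihood F-tests, two-sided, with Benjamini-Hochberg adjustment over 14184 genes in each comparison and a threshold of 0.05. Fold changes are fitted log2 values with a standard error (SE); SD is over the 3 libraries of a group. An exact permutation test of 3 against 3 libraries cannot go below p = 0.1. The script was tested on simulated counts. Libraries held 15715121 to 18369443 counts, so counting error is small for these genes except the lowest list genes.

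The members and lists were chosen with earlier results of these data known. The text names all members, and from each list, under each compound, the called genes with the smallest p, up to 4; other named genes are said to be chosen after their values were seen. One gene that this rule names is not reported here. Alternatives were RLE and upper-quartile scaling, other filters, no robust estimation, a replicate block, a gene length correction, only the libraries compared, all 9 controls pooled, DESeq2 1.42.0 and each library left out. Promoter sequences are RefSeq's (GRCr8), and 4 of the 8 members matched by symbol.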

Additional observations from a re-analysis of the deposited data

Results flagged for a closer look

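The effect of 1 compound on a member, measured against its own controls, differed from the effect of another in 8 tests of the difference itself (edgeR, adjusted over all genes). Between PDS and Phen-DC3 the difference in log2 change was 0.50 for Ccn2, -0.89 for Ccn3, -0.42 for Ccn5, 0.41 for Thbs1 and -0.31 for Thbs2. Between PDS and Braco-19 it was 0.54 for Ccn2, -0.99 for Ccn3 and -0.51 for Thbs2. Of all genes tested, 20.2% passed for PDS minus Phen-DC3 and 14.0% for PDS minus Braco-19. In the PDS and Phen-DC3 test, Thbs1 and Thbs2 each lost the call in 10 of 22 alternatives, and Ccn5 in 2. The PDS controls and unnamed controls also differed from each other in Ccn2 and Ccn3. The labels state no doses.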

How the results depend on the processing

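Groups share replicate numbers, but not every same-numbered pair of libraries deviated together (correlations of -0.18 to 0.20 in the PDS pair, -0.57 to -0.13 in the Phen-DC3 pair and 0.0027 to 0.20 in the Braco-19 pair), so no pairing was taken from them. With them as a replicate block, genes called with and without it came to 587 against 1148 under PDS, 1 against 1136 under Phen-DC3, 2 against 39 under Braco-19, 1 against 864 between Phen-DC3 and PDS controls, 1161 against 2862 for PDS minus Phen-DC3, 661 against 1990 for PDS minus Braco-19 and 1 against 7 for Braco-19 minus Phen-DC3; members called came to 0 under Phen-DC3, 0 between those controls and 3 for PDS minus Phen-DC3. With the block and the length correction, genes called in the same order were 763, 1, 7, 1, 696, 1062 and 1, and members called again 0, 0 and 3. With the length correction alone, genes called were 47 under Phen-DC3, 468 between those controls, 1888 for PDS minus Phen-DC3 and 0 for Braco-19 minus Phen-DC3, and 0 members under Phen-DC3. With only the libraries compared, they were 2053 under PDS, 1 under Phen-DC3, 781 under Braco-19, 3 between those controls, 3239 for PDS minus Braco-19 and 0 for Braco-19 minus Phen-DC3, and members 0 under Phen-DC3 and between those controls. With all 9 controls pooled, genes called were 102 under PDS, 0 under Phen-DC3 and 0 under Braco-19, and members 1 and 0 for the first 2. DESeq2 called 2060 genes under Phen-DC3, 391 under Braco-19, 1615 (and 2 members) between those controls and 57 for Braco-19 minus Phen-DC3, which came to 4 with RLE scaling and 0 without robust estimation. Upper-quartile scaling moved the PDS split from 728 higher and 420 lower to 575 and 527. The spread between pairs of libraries of a group, relative to counting error, was unequal. It was 12.8 to 34.2 in Phen-DC3 controls, 6.48 to 16.0 under Phen-DC3 and 5.23 to 8.00 under PDS. In the other groups it ran from 4.12 to 12.6.

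Leaving out 1 library gave 563 to 867 genes called under PDS, 0 to 3315 under Phen-DC3, 1 to 153 under Braco-19, 0 to 2740 between Phen-DC3 and PDS controls, 1447 to 4218 for PDS minus Phen-DC3, 896 to 2353 for PDS minus Braco-19 and 0 to 15 for Braco-19 minus Phen-DC3. Members called were 0 to 4 under Phen-DC3, 0 to 3 between those controls, 3 to 5 for PDS minus Phen-DC3 and 3 under PDS each time. Signs of called values turned for Thbs2 with the length correction, without and with the block, under Phen-DC3 (0.023, 0.023), in unnamed against PDS controls (-0.98, -0.98) and in Phen-DC3 against unnamed controls (0.94, 0.94), and under Phen-DC3 for Lrp1 (0.090, 0.082) and Ltbp2 (0.031, 0.031). Of 1320 values of members under the alternatives, 54 lost a call, 19 gained one and 52 changed sign, 46 of these where no value was called. Of 629 values of the 37 named list genes, 178 lost their call. The cause was not tested for any of these. Genes with few counts, such as Ccn6 (0 to 12) and Comp (26 to 61), are limited by depth.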

Other observations

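The surrounding lists also differed between unnamed and PDS controls, where 37.7% of all genes were higher and 35.6% lower. Of 14 receptors and binding partners 10 were higher and 2 lower (9 and 2 with the length correction), led by Lrp1 (log2 3.55 ± 0.12, and 0.86 with the length correction). Of 16 genes of the TGF-beta axis 13 were higher and 1 lower, with Pmepa1 at 1.42 ± 0.08 and, with the length correction, 1.81, and 8 higher and 2 lower in that fit. Of 17 Hippo pathway components 13 were higher and 1 lower, among them the transcription factor Tead1 (2.19 ± 0.09, and 2.51 with the length correction), and 10 higher and 4 lower in the corrected fit. Of 19 YAP/TAZ target genes 12 were higher and 5 lower, and 8 and 6 with the correction. The SRF target genes went the other way, 3 higher and 10 lower of 15, with the smooth muscle genes Cnn1 at -1.72 ± 0.12 and Tagln at -1.60 ± 0.12, and 1 higher and 11 lower with the length correction. These genes were named after their values were seen.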
